A study of Mus musculus with 24 samples.

Results

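The genes described here are 39 genes of apoptosis, necroptosis and pyroptosis, the regulated forms of cell death, followed in brain microvessels of mice after transient middle cerebral artery occlusion (tMCAO). They were taken by symbol, as the rows of the deposited table that carry 1 of 39 gene names. The names were chosen with earlier results of these data known. All 39 were found among the 17270 genes of the table, and all 39 passed the filter on low values that left 15982 genes for testing. The labels give male C57BL/6J mice of 10 to 12 weeks, in which the artery was closed for 60 min with a filament (stroke) or the filament was withdrawn at once (sham). Microvessels of the ipsilateral and the contralateral hemisphere were collected after 24 h or 7 days, which gave 8 groups of 3 libraries. Each library was made from the vessels of 3 pooled hemispheres, as stated in the methods, and the vessels came from the whole hemisphere, so that intact tissue is mixed with infarcted tissue. All groups underwent the filament surgery, and no unoperated animals are among them.

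Apoptosis can start inside the cell or at its surface. In the mitochondrial pathway, BH3-only proteins sense damage and free the effectors Bax and Bak1 from anti-apoptotic BCL-2 proteins, the outer mitochondrial membrane opens, and cytochrome c activates caspase-9 on the Apaf1 scaffold. In the receptor pathway, Fas and related receptors recruit Fadd and caspase-8. Where caspase-8 is held back, Ripk1 and Ripk3 can activate Mlkl, which ruptures the plasma membrane (necroptosis). Inflammasomes built from sensors such as Nlrp3 and the adaptor Pycard activate caspase-1, and cleaved gasdermin D (Gsdmd) then opens pores in the membrane (pyroptosis). The transcription factor p53, encoded by Trp53, drives several genes of the mitochondrial pathway and is kept low by Mdm2.

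The libraries summed to between 15924780 and 18787932 normalized counts, which the authors made by scaling the reads of each library with its size factor and rounding to whole numbers. Tests were run with limma on log2(value + 1) with all 8 groups in the fit, so that fold changes of genes with low counts, such as Nlrp3 and Hrk, are understated. A gene was called regulated with a Benjamini-Hochberg adjusted p under 0.05 over all 15982 genes and a change above 1.5-fold. In the text, values in brackets after ± are standard errors of a log2 fold change, and libraries of a group are named by the number in their label. The 8 endothelial markers (Pecam1, Cldn5 and others) were present in every library and added up to between 279754 and 449755 normalized counts.

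Relative to transcript length, the death genes of sham vessels covered a wide range. Per kilobase of the longest annotated transcript, the anti-apoptotic genes Bcl2l1, which encodes BCL-XL, and Mcl1 had the highest medians of the 39 over the 12 sham libraries, with 2538 and 2343 normalized counts. Their ranges, 1401 to 4221 and 1640 to 3395, overlapped. Bcl2 itself had a median of 37.2 and ranked 33rd of the 39. The death receptor gene Fas followed with 1536, ahead of the effector genes Bok (526) and Bax (479) and of the initiator caspase gene Casp8 (444). Nlrp3 was the lowest, with 4.73 normalized counts per kilobase.

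At 24 h, 10 of the 39 genes were higher in the ipsilateral vessels after stroke than after sham surgery and 0 were lower, whereas 10.0% of all tested genes were higher and 8.23% lower. The 10 genes came from 7 of the 9 functional groups: Ripk3 and Mlkl of necroptosis, Nlrp3 and Pycard of the inflammasome, Bax and Bak1 of the effectors, the BH3-only gene Bid, the caspase gene Casp8, the death receptor gene Tnfrsf10b and Trp53. The other functional groups, the anti-apoptotic BCL-2 genes and the genes of the apoptosome and IAP proteins, had no regulated member at this time. At 7 days, 4 were higher (Birc3, Bik, Bmf and Gsdmd) and 1 was lower (Hrk), against 3.27% higher and 9.95% lower among all tested genes. No gene was regulated at both times, 10 were regulated at 24 h only, 5 at 7 days only and 24 at neither, which by itself does not show that the effects differ. The median log2 fold change of the 39 genes was 0.09 at 24 h and 0.24 at 7 days, beside -0.02 and 0.02 over all tested genes. Stroke and sham libraries did not overlap in 20 of the 39 genes at 24 h (16 above, 4 below), where 49.0% of all genes were without overlap, and in 11 at 7 days (10 above, 1 below), where 30.0% were. With each library centred on its median, 9 of the 39 were still higher and 0 lower at 24 h, although the split over all genes turned to 8.33% higher and 10.7% lower. With the values corrected for transcript length and GC content, the split over all genes at 7 days was 6.51% higher and 9.20% lower, and 6 of the 39 were higher and 1 lower.

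**Figure D1:**
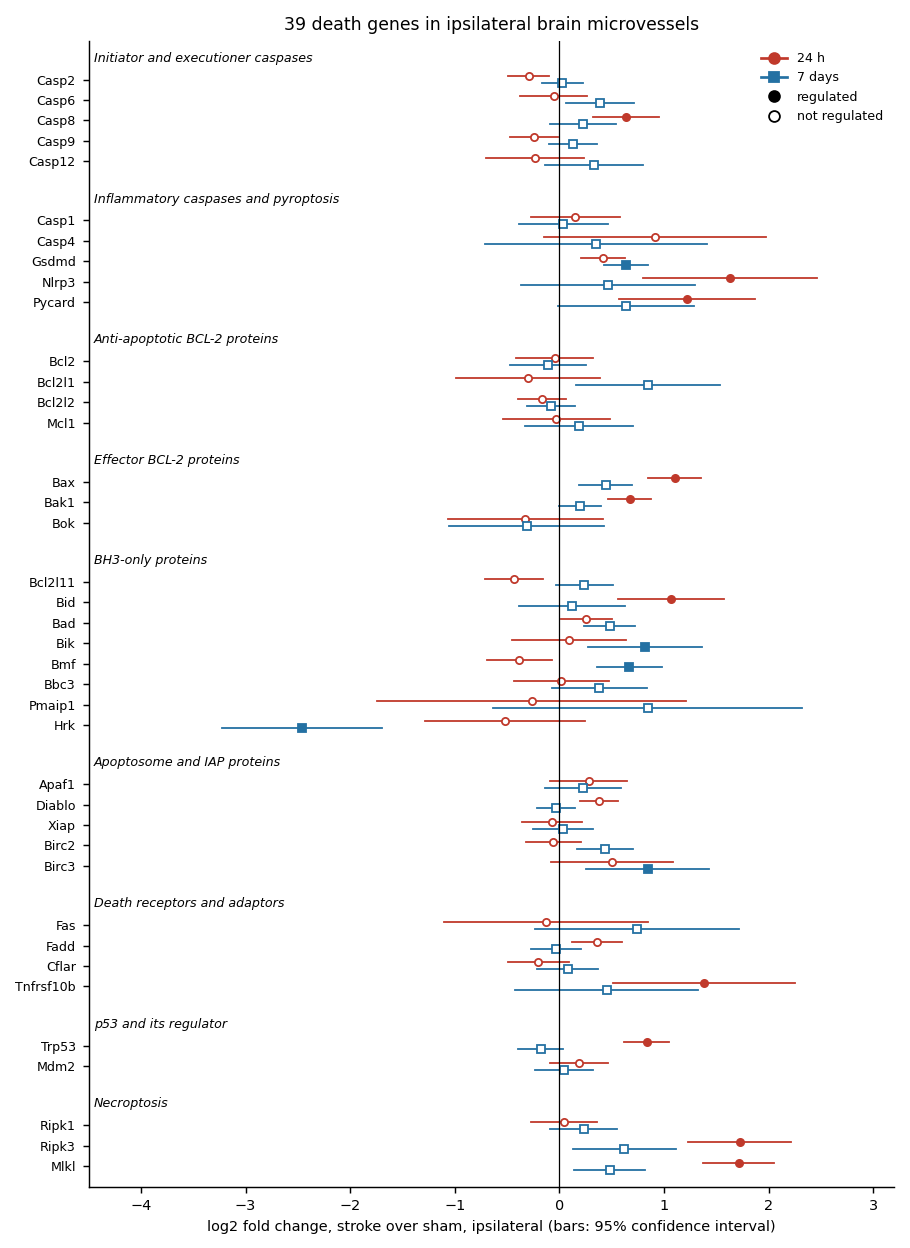
Log2 fold change of each of the 39 genes, stroke over sham in the ipsilateral vessels, at 24 h (circles) and 7 days (squares), with 95% confidence intervals from limma. Filled symbols mark regulated genes. Ripk3 (1.72) and Mlkl (1.71) lie farthest to the right at 24 h, and Hrk (-2.46) farthest to the left at 7 days.

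The genes of the necroptosis machinery downstream of Ripk1 had the largest increases of the 39 at 24 h. Ripk3, the kinase that forms the necrosome, stood at 185, 169 and 153 normalized counts in the 3 stroke libraries and at 48, 43 and 62 in the 3 sham libraries, a log2 fold change of 1.72 (± 0.24, limma, adjusted p = 3.17e-05). Mlkl, the pore-forming effector that Ripk3 phosphorylates, stood at 445, 515 and 304 after stroke and at 137, 115 and 123 after sham surgery (1.71 ± 0.16, adjusted p = 5.91e-07). All 3 stroke libraries lay above each of the 18 control libraries, that is the sham libraries and the contralateral stroke libraries of both times, which reached at most 69 for Ripk3 and 183 for Mlkl. Ripk1, the kinase upstream of both, did not pass, with 1122, 1246 and 1088 after stroke against 1038, 1079 and 1247 (0.04 ± 0.15). By 7 days Mlkl was at 214, 230 and 205 against 152, 150 and 162 in the sham vessels. All 3 libraries were still above every control library, and the log2 fold change of 0.48 (± 0.16, adjusted p = 0.0468) was under the 1.5-fold limit. Ripk3 at 7 days had 100, 106 and 64 against 68, 50 and 54, with overlapping groups (0.62 ± 0.24, adjusted p = 0.079), and it passed without the stroke library 3 (0.85, adjusted p = 0.0227) and with each library centred on its median (0.66, adjusted p = 0.0484).

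Of the 5 genes of the inflammatory caspases and pyroptosis, Nlrp3 and Pycard rose at 24 h and Gsdmd at 7 days. Nlrp3, the inflammasome sensor, was low throughout, with 97, 46 and 59 normalized counts at 24 h after stroke and 18, 28 and 16 after sham surgery (1.63 ± 0.40, limma, adjusted p = 0.00477). Pycard, the adaptor that links sensor and caspase-1, rose from 80, 91 and 78 to 163, 192 and 235 (1.22 ± 0.31, adjusted p = 0.00633). At 7 days neither passed against sham: Pycard had 192, 182 and 215 after stroke, which is the level of 24 h, but the sham libraries then spread from 86 to 178 (0.63 ± 0.31, adjusted p = 0.181). Gsdmd, which forms the pore, stood at 852, 853 and 806 at 7 days after stroke against 576, 569 and 477 (0.63 ± 0.10, adjusted p = 1.72e-04). The 3 values lie above the 470 to 660 of the 18 control libraries. Without the sham library 3 of 7 days the change of Gsdmd was 0.55, under the limit of 1.5-fold, with an adjusted p of 0.002. At 24 h Gsdmd was at 739, 755 and 661 against 560, 520 and 537, a change of 0.41 (± 0.10, adjusted p = 0.00488) under the limit. Casp1 stayed between 50 and 94 in all 24 libraries and did not pass at either time (0.15 ± 0.20 and 0.04 ± 0.20). Casp4, which encodes the non-canonical inflammatory caspase-11, had 440, 551 and 448 at 24 h against 179, 302 and 301 without overlap. The change of 0.91 (± 0.51, adjusted p = 0.18) did not pass. The fit shares 1 spread over all 8 groups, and Casp4 differed most within those of 7 days, with 119 to 512 in the sham ipsilateral libraries. With only the compared groups in the fit, Casp4 passed (adjusted p = 0.0151).

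**Figure D2:**
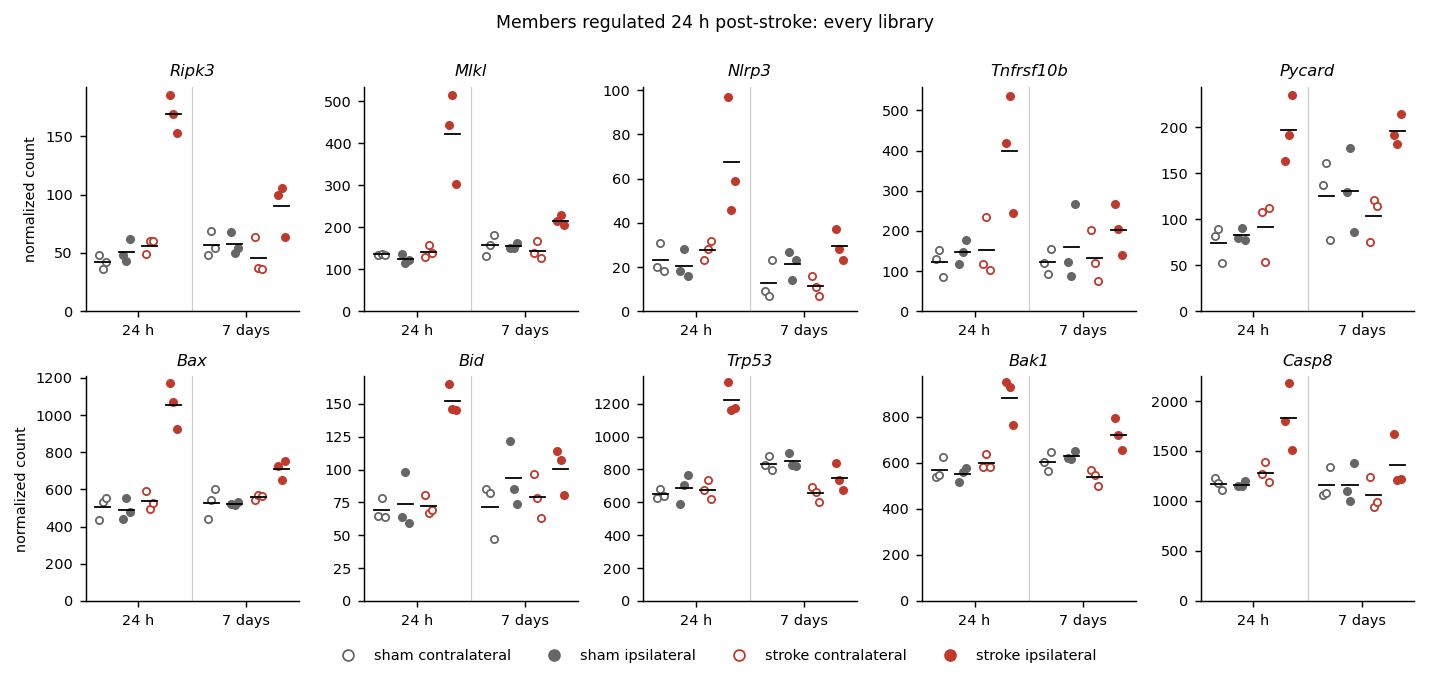
Normalized counts of the 10 genes regulated 24 h post-stroke in every library, by surgery, hemisphere and time point, with 1 point per library and a line at the group mean (n = 3). In the panel of Mlkl, the stroke ipsilateral libraries of 24 h lie between 304 and 515 and those of 7 days between 205 and 230, while the 18 control libraries reach at most 183.

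Neutrophil markers were higher at 24 h, as were Nlrp3 and Pycard, while those of macrophages, monocytes and microglia did not rise as a set. Of the 8 neutrophil markers, 6 passed the filter on low values and all 6 were higher at 24 h, and the summed level of the 8 was 2702 to 6062 normalized counts in the stroke libraries and 226 to 1174 in the sham libraries. At 7 days the sums were 801 to 4803 and 201 to 1737, and 1 of 6 was higher (Csf3r). Of 8 macrophage and monocyte markers, 3 were higher at 24 h (Ccr2, Arg1 and Ly6c2) and 2 lower at 7 days, with sums of 3114 to 6081 against 2246 to 3665 at 24 h. Arg1 passed the filter on low values only through the stroke ipsilateral libraries of 24 h (329, 349 and 189 normalized counts), so the filter favoured its call. Of 8 microglia markers, 3 were lower at 24 h. The markers at 0 in all 3 libraries of a group were Arg1 in both contralateral groups of 7 days and the proliferation marker Aurkb in the contralateral stroke group of 7 days. Ly6g, a defining marker of mouse neutrophils, did not exceed 21 normalized counts in any library. The part of leukocytes in the increases of Nlrp3, Pycard, Ripk3, Mlkl and the other 24 h genes was not tested. In such bulk samples, fewer cells of a type and less RNA per cell cannot be told apart.

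Of the 5 initiator and executioner caspase genes among the 39, Casp8 alone was regulated. It encodes the initiator caspase of the receptor pathway, which also cleaves Ripk1 and Ripk3, and it stood at 1797, 2184 and 1511 normalized counts at 24 h after stroke against 1146, 1151 and 1196 (0.64 ± 0.15, limma, adjusted p = 0.00389). Without the stroke ipsilateral library 2 of 24 h the change was 0.50 and under the limit, and with each library centred on its median, and after the correction for length and GC content, it was 0.57. Casp2, an initiator tied to the p53 response, and Casp9, the caspase of the apoptosome, lay below the sham libraries without overlap at 24 h, at 521 to 580 against 644 to 719 and at 535 to 566 against 614 to 712. Their changes were small, with -0.29 (± 0.09, adjusted p = 0.0245) for Casp2 and -0.24 (± 0.11, adjusted p = 0.101) for Casp9. Casp6, an executioner, and Casp12, which is tied to stress of the endoplasmic reticulum, did not pass against sham at either time and ranged over all 24 libraries from 407 to 784 and from 383 to 796. Casp8 lies 36490 bases from Cflar on chromosome 1, and Casp1, Casp4 and Casp12 lie side by side on chromosome 9, with gaps of 1584 and 8647 bases and without overlap.

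Of the pore-forming effectors of the BCL-2 family, Bax and Bak1 rose at 24 h, and no anti-apoptotic member was regulated at either time. Bax stood at 1171, 1070 and 924 normalized counts after stroke and at 439, 553 and 481 after sham surgery (1.10 ± 0.12, limma, adjusted p = 3.48e-06). Bak1, its close relative, stood at 952, 927 and 762 against 515, 560 and 579 (0.67 ± 0.10, adjusted p = 6.08e-05), and after the correction for length and GC content at 0.58, just under the limit. For both genes the 3 stroke libraries of 24 h were above all 18 control libraries, and so were those of 7 days. At 7 days Bax had 727, 652 and 755 against 524, 515 and 530 (0.44 ± 0.12, adjusted p = 0.0159), a change under the limit. Bak1 had 792, 720 and 654 against 622, 616 and 649 at that time (0.19 ± 0.10, adjusted p = 0.193). Bok, the third effector, did not differ from sham at either time beyond its spread (-0.33 ± 0.35 and -0.31 ± 0.35).

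Bcl2, Bcl2l1, Bcl2l2 and Mcl1 gave log2 fold changes between -0.30 and -0.03 at 24 h, of which none passed. The 95% confidence interval reached from -0.41 to 0.32 for Bcl2 and from -0.40 to 0.06 for Bcl2l2, so that a change of 1.5-fold lies outside both. For Bcl2l1 it reached from -0.99 to 0.39, and holds changes of that size. At 7 days Bcl2l1 had 9599, 6552 and 12420 after stroke against 3598, 5128 and 7345, with overlap (0.84 ± 0.33, adjusted p = 0.0893). It passed without the sham library 3 (1.10, adjusted p = 0.0441), without the stroke library 2 (1.09, adjusted p = 0.045), and after the correction for length and GC content (0.94, adjusted p = 0.0457).

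The BH3-only genes, which encode the sensors of the mitochondrial pathway, moved in different directions and at different times. Bid, which carries the signal of caspase-8 to the mitochondria, was at 165, 146 and 145 normalized counts at 24 h after stroke against 64, 98 and 59 (1.07 ± 0.24, limma, adjusted p = 0.00286). All 3 values were above the 18 control libraries, whose highest had 122. By 7 days Bid had 114, 107 and 81 against 122, 85 and 74, with overlap (0.12 ± 0.24). Bmf, a sensor linked to loss of anchorage and to the cytoskeleton, was at 691, 437 and 499 at 7 days against 306, 357 and 344 (0.67 ± 0.15, adjusted p = 0.00362). At 24 h it had 299, 257 and 314 against 312, 404 and 425 (-0.38 ± 0.15, adjusted p = 0.0575). Without the stroke ipsilateral library 1 of 7 days, the highest of the group, its change at 7 days was 0.48 and under the limit. Bcl2l11, which encodes Bim, gave the same signs without being regulated against sham at either time: 349, 356 and 279 against 448, 403 and 477 at 24 h (-0.44 ± 0.13, adjusted p = 0.0173) and 687, 502 and 548 against 480, 433 and 553 at 7 days (0.24 ± 0.13, adjusted p = 0.24). Bik stood at 87, 64 and 128 at 7 days against 45, 63 and 45 (0.82 ± 0.26, adjusted p = 0.036), with 64 and 63 as the closest values. The call of Bik was lost in 4 of 6 fits that left out a library, with adjusted p-values of 0.116 and 0.107 without sham libraries 1 and 3 and of 0.0844 and 0.19 without stroke libraries 1 and 3.

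Hrk had the largest change of the 39 genes in either comparison of stroke with sham. It encodes Harakiri, a BH3-only protein best known from neurons, and stood at 7, 14 and 18 normalized counts in the ipsilateral vessels 7 days post-stroke, at 61, 65 and 92 in the sham vessels and at 162, 60 and 72 in the contralateral vessels. The log2 fold change against sham was -2.46 (± 0.37, limma, adjusted p = 9.8e-05), and the 3 stroke libraries lay below all 18 control libraries. At 24 h Hrk had 25, 33 and 15 against 39, 24 and 41, with overlap (-0.52 ± 0.37, adjusted p = 0.289). Neuronal markers moved with Hrk: 7 of 8 were lower at 7 days, with sums of 2242 to 2785 normalized counts against 5388 to 8419 in the sham libraries, and 4 of 8 were lower at 24 h, with 2513 to 3434 against 5813 to 6209. Most of the stroke sums of 7 days came from Stmn2, the marker that was not lower (1769, 2095 and 1944 against 1733, 1993 and 1783). The highest sum of the neuronal markers, 15971, and the highest value of Hrk, 162, were both found in the contralateral stroke group of 7 days. Their part in the change of Hrk was not tested. Of the other BH3-only genes, Bad was at 948, 768 and 880 at 7 days against 624, 668 and 565, a change of 0.48 (± 0.12, adjusted p = 0.00675) under the limit. Bbc3 and Pmaip1, the p53 targets Puma and Noxa, did not pass at either time, with 0.02 (± 0.22) and -0.26 (± 0.71) at 24 h and 0.38 (± 0.22) and 0.84 (± 0.71) at 7 days.

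**Figure D3:**
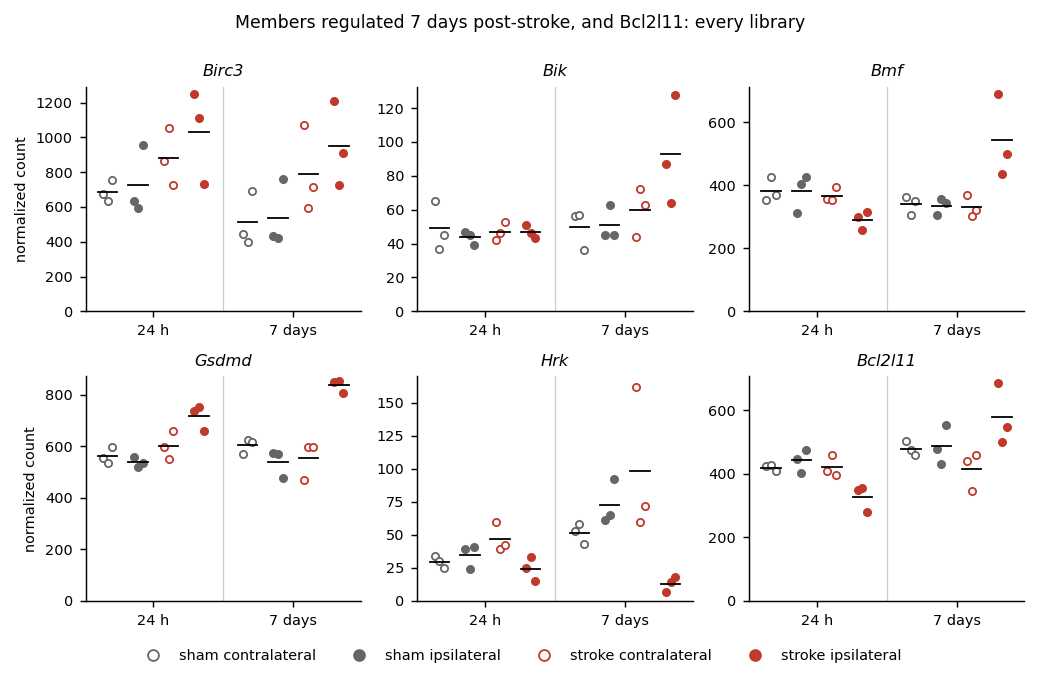
Normalized counts of the 5 genes regulated 7 days post-stroke and of Bcl2l11 in every library, by surgery, hemisphere and time point, with 1 point per library and a line at the group mean (n = 3). Hrk falls to between 7 and 18 in the ipsilateral stroke libraries of 7 days, and Gsdmd reaches 806 to 853 there.

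Trp53 and the death receptor gene Tnfrsf10b rose at 24 h, and Fas and Mdm2 did not. Trp53 stood at 1329, 1164 and 1173 normalized counts against 591, 707 and 767 (0.83 ± 0.10, limma, adjusted p = 1.01e-05), above the 591 to 900 of the 18 control libraries. At 7 days it had 842, 736 and 674 against 900, 827 and 818 (-0.18 ± 0.10, adjusted p = 0.257). Mdm2, the ubiquitin ligase of p53 and itself a p53 target, had 1158, 1144 and 968 at 24 h against 908, 975 and 987 (0.18 ± 0.13, adjusted p = 0.303). Tnfrsf10b, the TRAIL receptor of the mouse, had 420, 536 and 245 against 118, 147 and 177 (1.38 ± 0.42, adjusted p = 0.0175). This call was lost without the sham library 1 (adjusted p = 0.0728) and without the stroke libraries 1 (0.0575) and 2 (0.0868), while the change stayed between 1.14 and 1.70. Fas, at 2395, 3049 and 2260 against 2506, 2299 and 3763, did not pass (-0.13 ± 0.47). Fadd, the adaptor of Fas, had 329, 367 and 363 against 262, 293 and 272, without overlap and under the limit (0.36 ± 0.11, adjusted p = 0.025). Cflar, which encodes the caspase-8 inhibitor c-FLIP, ranged from 1899 to 3030 over all libraries and did not pass at either time (-0.20 ± 0.14 and 0.08 ± 0.14).

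Of the 5 genes of the apoptosome and of the inhibitor of apoptosis (IAP) proteins, 0 were regulated at 24 h and Birc3 was at 7 days. Apaf1, the scaffold of the apoptosome, and Xiap, which blocks caspases directly, did not pass at either time (0.28 ± 0.18 and -0.07 ± 0.14 at 24 h). Diablo, which encodes the IAP antagonist Smac, had 1020, 1083 and 931 normalized counts at 24 h against 755, 768 and 807, without overlap and under the limit (0.38 ± 0.09, limma, adjusted p = 0.00337). Birc3, which encodes cIAP2, was regulated at 7 days although its groups overlapped, with 1209, 725 and 910 against 432, 419 and 762 (0.84 ± 0.28, adjusted p = 0.0434). Its call was lost in 4 of 6 fits that left out a library, with adjusted p-values of 0.156 and 0.163 without sham libraries 1 and 2 and of 0.199 and 0.0848 without stroke libraries 1 and 3. Birc2, which encodes cIAP1 and lies 11635 bases from Birc3 on chromosome 9, was at 1189, 906 and 1069 against 750, 712 and 875 (0.43 ± 0.13, adjusted p = 0.0229), under the limit.

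The effect of stroke on 7 of the 39 genes differed between 24 h and 7 days in a test of the difference itself (the interaction of surgery and time in the ipsilateral vessels). The effect was lower at 7 days for 5 genes and higher for 2, against 5.68% and 2.43% of all tested genes. With each library centred on its median, the effect was lower at 7 days for 3 genes and higher for 2, against 4.29% and 3.72% of all genes. Of the 10 genes regulated at 24 h, Mlkl (-1.23 ± 0.23, limma, adjusted p = 0.00216), Trp53 (-1.01 ± 0.15, adjusted p = 2.61e-04), Ripk3 (-1.10 ± 0.33, adjusted p = 0.0404) and Bax (-0.66 ± 0.17, adjusted p = 0.0195) had a smaller effect at 7 days. For Ripk3 this call was lost in 7 of 12 fits that left out a library (adjusted p up to 0.110), and for Bax in 2, without the sham library 1 (0.0639) and the stroke library 1 of 24 h (0.0627). Both were also lost with median centring (0.0531 and 0.0536) and after the correction for length and GC content (0.0902 and 0.0803), and Ripk3 with only the compared groups in the fit (0.0503). The effect on Hrk was more negative at 7 days (-1.94 ± 0.52, adjusted p = 0.0228), and its sham libraries were at 39, 24 and 41 normalized counts at 24 h and at 61, 65 and 92 at 7 days. Bmf (1.05 ± 0.21, adjusted p = 0.00382) and Bcl2l11 (0.68 ± 0.19, adjusted p = 0.0261), both encoding BH3-only proteins, had the higher effect at 7 days. The call of Hrk was lost in 5 of 12 fits that left out a library (adjusted p up to 0.0664). That of Bcl2l11 was lost in 6 (up to 0.0633), and also with only the compared groups in the fit (0.060). For the other 6 genes of 24 h the difference did not pass. That of Bak1 was -0.47 (± 0.14, adjusted p = 0.0336) and missed only the limit on the fold change. That of Bid (-0.95) passed with the replicate number as a block (adjusted p = 0.0365) and without the sham library 2 of 24 h (0.0393). The 95% confidence interval of the difference reached from -2.34 to 0.01 for Nlrp3 and from -1.51 to 0.33 for Pycard.

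Bax, Trp53, Ripk3 and Mlkl are the genes that were regulated at 24 h and called in the interaction, and for this reason the 250 bases before their transcription starts are shown here (RefSeq, build GRCm38.p6, written 5′ to 3′ on the strand of the gene). Capitals mark matches to 5 motifs that were searched on both strands: the E-box CACGTG, the AP-1 site TGANTCA, the GC box GGGGCGGGG, the GAS element TTCNNNGAA of STAT factors and the p53 decamer, the unit that occurs in pairs in p53 binding sites.
Bax, chr7:45466899-45467148, minus strand: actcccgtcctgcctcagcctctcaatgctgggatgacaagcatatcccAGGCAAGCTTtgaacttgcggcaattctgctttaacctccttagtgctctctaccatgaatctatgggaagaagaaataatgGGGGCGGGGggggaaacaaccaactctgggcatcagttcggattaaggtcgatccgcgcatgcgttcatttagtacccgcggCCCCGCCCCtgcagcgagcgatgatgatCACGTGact
Trp53, chr11:69580109-69580358, plus strand: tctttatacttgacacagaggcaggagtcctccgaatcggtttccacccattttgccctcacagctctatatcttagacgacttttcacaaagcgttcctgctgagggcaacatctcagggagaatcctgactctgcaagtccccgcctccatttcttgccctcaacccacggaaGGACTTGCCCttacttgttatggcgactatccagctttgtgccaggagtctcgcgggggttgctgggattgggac
Ripk3, chr14:55788858-55789107, minus strand: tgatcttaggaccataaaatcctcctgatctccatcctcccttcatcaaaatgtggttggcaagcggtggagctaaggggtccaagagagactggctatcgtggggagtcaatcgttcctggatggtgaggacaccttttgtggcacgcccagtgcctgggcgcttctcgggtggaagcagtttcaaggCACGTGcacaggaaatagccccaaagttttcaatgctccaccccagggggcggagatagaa
Mlkl, chr8:111338206-111338455, minus strand: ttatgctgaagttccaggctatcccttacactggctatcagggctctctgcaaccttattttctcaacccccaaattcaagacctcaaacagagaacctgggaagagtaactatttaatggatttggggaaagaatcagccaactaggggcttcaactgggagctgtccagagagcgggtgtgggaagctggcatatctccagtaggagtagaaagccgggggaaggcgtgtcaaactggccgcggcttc
The window of Bax holds a p53 decamer that begins at position -201, counted from the transcription start, GC boxes at -119 and -37 and an E-box at -9. That of Trp53 holds a p53 decamer at -75, that of Ripk3 an E-box at -61 and that of Mlkl none of the 5 motifs. Of 32851 promoter windows of this length in the mouse, 7.13% held a p53 decamer, 6.02% an E-box, 10.4% the GC box, 6.75% the AP-1 site and 7.02% the GAS element. Promoters were found for 35 of the 39 genes, not for Gsdmd, Bik, Pmaip1 and Tnfrsf10b. Among these 35 the p53 decamer occurred in 5 (Bax, Trp53, Mdm2, Nlrp3 and Bmf), the E-box in 5, the GC box in 10, the GAS element in 3 and the AP-1 site in 1, that of Fas. A gene was counted if any of its windows held the motif, and some genes, such as Bbc3, had more than 1 window. The shares above are of single windows, so counts and shares are not directly comparable. Binding was not measured, and a match of letters is no evidence of it.

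Against the contralateral vessels of the stroke groups, 8 of the 39 genes were higher ipsilaterally at 24 h and 0 were lower (8.52% and 5.14% of all tested genes). These 8 were the 10 genes of the comparison with sham without Casp8 (0.50 ± 0.15) and Bak1 (0.55 ± 0.10), which passed the adjusted p of limma (0.0204 and 4.78e-04) but not the limit on the fold change. With median centring 8 were higher and 1, Hrk, was lower (6.86% and 7.75% of all genes). In a fit of only these groups with same-numbered hemispheres paired by a block, Casp4 was also higher (1.17, adjusted p = 5.71e-04). Pmaip1 (-0.72, adjusted p = 0.00492) and Hrk (-0.96, adjusted p = 0.0378) were lower in that fit, where 10.1% of all genes were higher and 7.35% lower. Mlkl, with 130, 158 and 139 normalized counts contralaterally, changed by 1.53 (± 0.16) and Ripk3, with 49, 60 and 60, by 1.57 (± 0.24). The call of Nlrp3 (1.20 ± 0.40) was lost in 5 of 6 fits that left out a library (adjusted p = 0.103, 0.066 and 0.0525 without contralateral libraries 1, 2 and 3, and 0.166 and 0.0506 without ipsilateral libraries 1 and 3). That of Tnfrsf10b (1.41 ± 0.42) was lost in 4 (0.0639 and 0.0854 without contralateral libraries 1 and 3, 0.0632 and 0.0895 without ipsilateral libraries 1 and 2), and that of Pycard without the contralateral library 2 (0.82, adjusted p = 0.0693). At 7 days 6 genes were higher and 1 was lower (3.03% and 9.98%), or 10 and 1 after the correction for length and GC content (6.05% and 9.43%). Hrk was again lower (-2.77 ± 0.37, adjusted p = 1.97e-05), and Gsdmd (0.60 ± 0.10, adjusted p = 2.08e-04) and Bmf (0.69 ± 0.15, adjusted p = 0.00217) were again higher. In addition Nlrp3 (1.34 ± 0.40), Ripk3 (0.98 ± 0.24), Pycard (0.94 ± 0.31) and Mlkl (0.59 ± 0.16) were higher than contralaterally at 7 days. Leaving out 1 library ended the call of Pycard in 5 of 6 fits, with adjusted p-values of 0.205 and 0.0513 without contralateral libraries 1 and 3 and of 0.103, 0.0689 and 0.112 without ipsilateral libraries 1, 2 and 3. It ended that of Nlrp3 in 3 (0.106 without contralateral library 3, 0.114 and 0.051 without ipsilateral libraries 1 and 2). Mlkl was at 0.57, 0.50 and 0.55 without contralateral libraries 1 and 3 and ipsilateral library 2 (adjusted p = 0.0546, 0.0616 and 0.053). With only the compared groups in the fit, Nlrp3, Ripk3, Mlkl and Bmf did not pass (adjusted p = 0.0856, 0.125, 0.0925 and 0.0699). With same-numbered hemispheres also paired by a block, Hrk and Bmf passed. Nlrp3, Ripk3, Pycard, Mlkl and Gsdmd did not (adjusted p = 0.0716, 0.0920, 0.0598, 0.0851 and 0.0542). Gsdmd without contralateral library 1 (0.49) and Bmf without ipsilateral library 1 (0.50) were under the limit of 1.5-fold. For Nlrp3 the contralateral stroke libraries had 16, 11 and 7 normalized counts and the sham ipsilateral libraries 27, 14 and 23, beside 37, 28 and 23 in the ipsilateral stroke libraries. Both comparisons share the ipsilateral stroke libraries.

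Between the ipsilateral vessels of 24 h and 7 days post-stroke, 4 genes were higher at 7 days and 3 lower (3.72% and 8.44% of all tested genes), or 5 and 3 with median centring (5.88% and 6.46%). Trp53 (-0.71 ± 0.10, limma, adjusted p = 1.33e-04), Ripk3 (-0.93 ± 0.24, adjusted p = 0.00947) and Mlkl (-0.93 ± 0.16, adjusted p = 6.36e-04) were lower. After the correction for length and GC content, Trp53 was at -0.57, under the limit, and without the stroke library 3 of 7 days Ripk3 was at -0.71 with an adjusted p of 0.0612. Bmf (0.88 ± 0.15), Bcl2l11 (0.81 ± 0.13), Bik (0.93 ± 0.26) and Bok (1.06 ± 0.35, adjusted p = 0.0402) were higher. A difference of similar size was measured for Bok between the sham vessels, whose libraries had 625, 430 and 733 normalized counts at 24 h and 1174, 812 and 1838 at 7 days (1.05 ± 0.35, adjusted p = 0.174), and its interaction was 0.01 (± 0.50). The call of Bok was lost in each of the 6 fits that left out a library (adjusted p = 0.054 to 0.141), and that of Bik without the stroke library 3 of 7 days (0.67, adjusted p = 0.107).

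In the 7 comparisons between control groups, 0 of the 39 genes were regulated by limma. Between the hemispheres of sham mice, 0 genes of all tested were regulated at either time, and 0 of the 39 had an unadjusted p under 0.05. With the replicate number as a block, which pairs the sham hemispheres, and only the compared groups in the fit, 0 of the 39 were regulated either. In that fit 1 at 24 h and 3 at 7 days had an unadjusted p under 0.05, and 0.0438% of all genes were higher and 0.0250% lower ipsilaterally at 24 h and 0% at 7 days. The contralateral vessels of stroke and sham mice differed in 0% of all genes at 24 h and in 0.0313% at 7 days, where 0 and 8 of the 39 had an unadjusted p under 0.05. Of these 8, Fadd (-0.43 ± 0.11, adjusted p = 0.245) and Trp53 (-0.35 ± 0.10, adjusted p = 0.291) had the smallest p-values. Between 24 h and 7 days, 0% of genes were regulated in the contralateral stroke vessels, 0.476% in the sham ipsilateral and 0.332% in the sham contralateral vessels, and 4, 6 and 5 of the 39 had an unadjusted p under 0.05. All percentages in this paragraph are of regulated genes. The share of all genes with an unadjusted p under 0.05 is not given, so the counts at that threshold do not show an excess among the 39.

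The spread within groups varied widely between the genes. The pooled SD of the log2 values within groups was largest for Pmaip1 (0.96), Casp4 (0.69), Fas (0.63) and Tnfrsf10b (0.56) and smallest for Diablo (0.10), and 98.1% of all tested genes had a smaller SD than Pmaip1. Fas stood at 1317, 1254 and 4507 normalized counts in the sham ipsilateral libraries of 7 days and at 1232, 1287 and 4398 in the contralateral ones. In the stroke libraries of 7 days it stood at 4802, 2605 and 2794 ipsilaterally and at 5376, 2674 and 2451 contralaterally. Number 3 of the sham and number 1 of the stroke libraries were thus high on both sides. Pmaip1 had the same libraries on top, with 1385 and 1384 for sham number 3 and 1484 and 1969 for stroke number 1. Mlkl and Trp53, in contrast, did not overlap between the hemispheres at 24 h after stroke, with 304 to 515 against 130 to 158 for Mlkl. Without the sham libraries 3 and the stroke libraries 1 of 7 days on both sides, a choice made after these values were seen, Fas was regulated at 7 days against sham (1.07 ± 0.24, limma, adjusted p = 0.00672), in the interaction (1.20 ± 0.31, adjusted p = 0.0211) and, as lower at 7 days, between the sham groups of both times (-1.12 ipsilaterally and -1.14 contralaterally). The libraries left out were the highest of their groups for Fas. Leaving them out narrows its spread by construction, so these p-values of Fas are no evidence of a change. In the same fit without these libraries, Bik, Bmf and Gsdmd were no longer regulated at 7 days (0.76, 0.50 and 0.53), and Hrk was no longer called in the interaction (-1.40, adjusted p = 0.0519). Without the sham ipsilateral library 3 of 7 days alone, Fas also passed at 7 days against sham (1.35, adjusted p = 0.045).

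**Figure D4:**
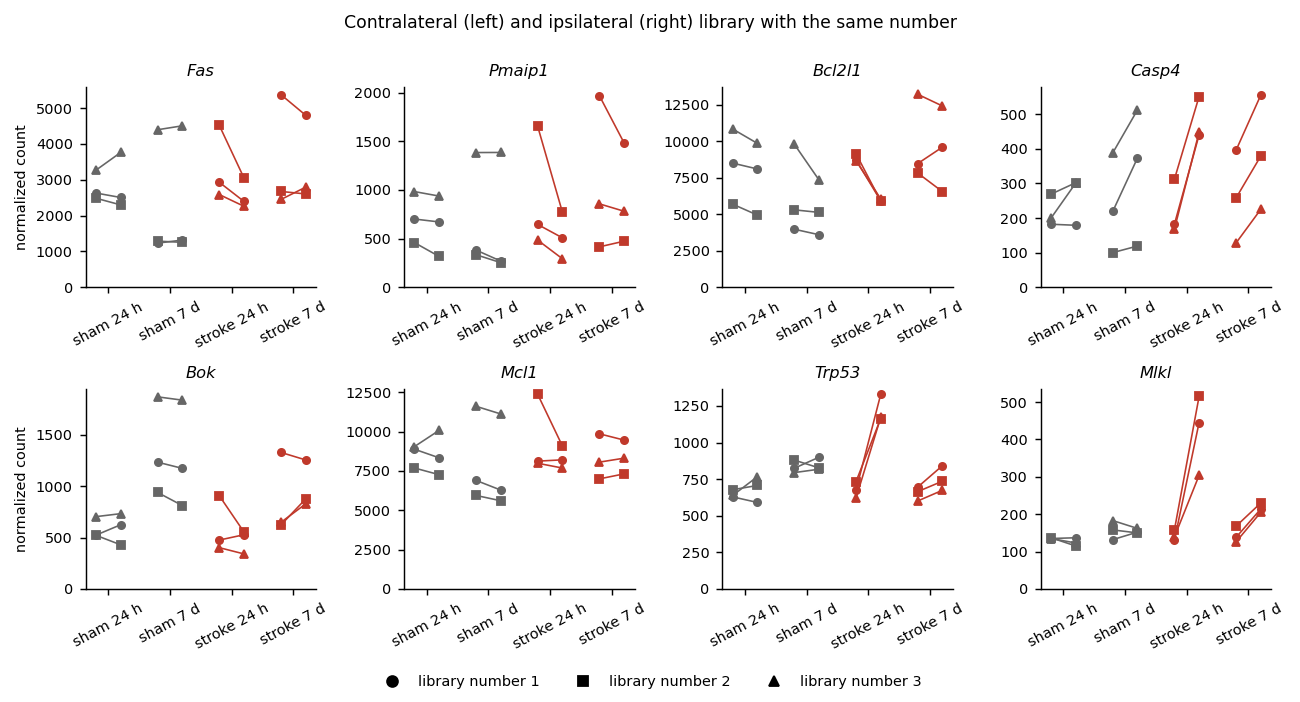
Normalized counts of 8 genes in the contralateral (left end of each line) and the ipsilateral library (right end) with the same number. For Fas the sham library 3 of 7 days lies at 4398 and 4507 and the other sham libraries of 7 days lie between 1232 and 1317, whereas the lines of Mlkl and Trp53 rise from left to right in each of the 3 pairs 24 h post-stroke.

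Other genes of the same pathways were drawn up as 5 lists. Their counts stand beside 10.0% higher and 8.23% lower among all tested genes at 24 h and 3.27% and 9.95% at 7 days. Among the other genes of the mitochondrial pathway, Cycs, the gene of cytochrome c, was higher at 24 h (0.99 ± 0.18, limma, adjusted p = 4.8e-04). At 7 days Birc5 was higher (2.05 ± 0.57, adjusted p = 0.016), which encodes the mitotic protein survivin and is also among the 8 proliferation markers. Of these markers 6 were tested, and all 6 were higher at 7 days (sums over the 8 of 331 to 403 against 71 to 79). Aurkb passed the filter on low values only through the stroke ipsilateral libraries of 7 days (33, 25 and 17 normalized counts), so the filter favoured its call. Of 14 tested genes around the TNF receptor, Traf1 (0.88 ± 0.27) and Tnfrsf1a (0.69 ± 0.24) were higher at 24 h. At 7 days Traf1 was higher (1.46 ± 0.27) and Tnfrsf21, which encodes death receptor 6, was lower (-0.65 ± 0.11). Among 16 other regulators of necroptosis only Zbp1, a sensor of nucleic acids that can engage Ripk3, was higher at 24 h (1.73 ± 0.35, adjusted p = 0.0012). At 7 days 0 were regulated and 3 had an unadjusted p under 0.05, a count without the share of all genes beside it.

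Of 18 tested other inflammasome genes, 6 were higher at 24 h and 0 lower (10.0% and 8.23% of all tested genes). The largest changes were those of Il1b, the gene of interleukin-1β that caspase-1 matures (4.67 ± 0.93, limma, adjusted p = 0.001), and of Il1rn, which encodes the antagonist of its receptor (4.66 ± 0.89, adjusted p = 6.8e-04). At 7 days Txnip, which can bind Nlrp3, was higher (1.17 ± 0.32, adjusted p = 0.014) and Gbp5 lower (-0.66 ± 0.19, adjusted p = 0.02). Of 21 other p53 target genes, 4 were higher and 3 lower at 24 h, against the same 10.0% and 8.23%, with Eda2r (1.62 ± 0.46) and Aen (0.95 ± 0.15) as the largest increases and Polk (-0.91 ± 0.15) and Perp (-0.85 ± 0.22) as the largest decreases. The median over this list was -0.00 at 24 h, beside -0.02 over all tested genes. At 7 days 1 of the 21 was higher, Ddit4 (1.38 ± 0.36, adjusted p = 0.012), a gene that also answers to hypoxia and glucocorticoids.

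Markers of the vessel wall and of the cells around it were read from the same libraries. Of the 8 endothelial markers 0 were regulated at either time, with sums of 279754 to 345367 normalized counts against 306706 to 409544 at 24 h. Of the 8 markers of pericytes and mural cells, 2 were lower at 24 h (Rgs5 and Vtn) and 1 at 7 days (Vtn), with sums of 77836 to 137784 against 138846 to 163231 at 24 h and of 97304 to 128917 against 164861 to 170827 at 7 days. Of 8 astrocyte markers, 4 were lower at each time, and of 8 choroid plexus markers 5 were lower at 7 days. Of 8 fibroblast markers, 2 were lower at 24 h and 4 at 7 days, with sums of 14851 to 32167 against 29004 to 48987 and of 16705 to 17346 against 29823 to 42556. Of 8 oligodendrocyte markers, 2 were lower at each time. Of 4 tested T cell markers, 1 was higher at 24 h and 2 were lower at 7 days. Which of these cells carried the changes of the death genes was not tested.

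**Figure D5:**
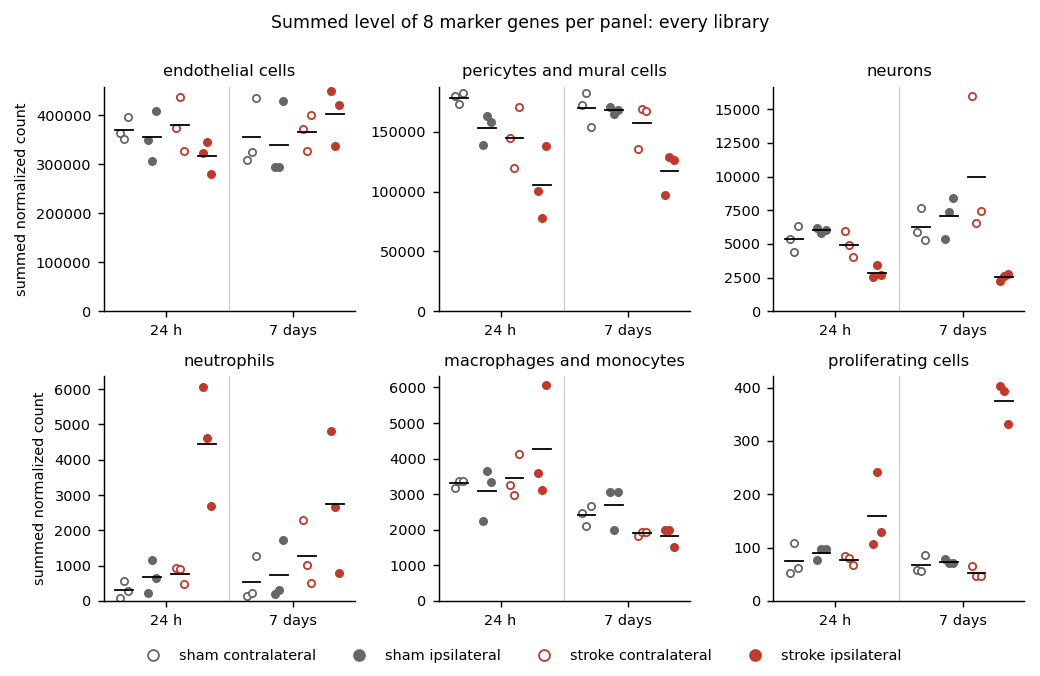
Summed normalized counts of 8 marker genes for each of 6 cell types in every library, by surgery, hemisphere and time point, with 1 point per library and a line at the group mean (n = 3). The neutrophil sums of the ipsilateral stroke libraries (2702 to 6062 at 24 h) lie above those of the sham ipsilateral libraries (226 to 1174), the neuronal sums lie below them at both times, and the endothelial sums overlap.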

How the data were processed

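RNA of microvessels from 24 libraries, in 8 groups of 3, was sequenced after a stranded poly(A) preparation. The values deposited by the authors are a score in the sense that they are no longer reads: the reads per gene of each library were scaled with its DESeq2 size factor, then rounded to whole numbers. The submitters' processing notes name STAR 2.5.2b, featureCounts 1.5.1 and DESeq2 1.6.2, with the build mm10, and the study's methods give other versions of STAR and DESeq2 and state that outlying samples were removed before the analysis. Reads could not be recovered from the rounded values, so no count model was run. Rounding and the scaling over all genes limit the precision of genes with few counts, and changes are relative to the bulk of genes.

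Groups were taken from the sample titles. Values were tested as log2(value + 1) with limma 3.58.1 in R 4.3.3 (linear model, contrasts, moderated variance with a trend), in 15982 of 17270 genes with a mean above 5, with Benjamini-Hochberg adjustment over all of them. Regulated means an adjusted p under 0.05 and a change above 1.5-fold. The limma step was tested on simulated data. Replicates are pooled libraries, and p-values measure the spread between them. All 39 genes are described by role, those regulated in the ipsilateral vessels against sham with every library, and of each other list the 2 largest increases and decreases among regulated genes. The genes, lists and markers were chosen with earlier results of these data known. Of the list genes, 5 were not found by symbol in the table, and a result of the list of other mitochondrial genes is not reported here. Between sham hemispheres, same-numbered libraries deviated together (correlations of 0.145 to 0.410 at 24 h and 0.325 to 0.467 at 7 days), so these numbers pair the libraries. Alternatives were another pseudocount (0.5), another minimum mean (none or 20), median centring, a fit with only the compared groups, no fold limit, a correction for GC content and transcript length (known for 99.9% of tested genes), a replicate block and leaving out libraries. Figures were drawn with Python 3.11.15 and matplotlib 3.10.9. Promoters come from RefSeq (GRCm38.p6), and motifs were matched as letters. Transcript lengths and GC contents are those of the longest GENCODE transcript of each gene.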

Additional observations from a re-analysis of the deposited data

Results flagged for a closer look

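The effect of stroke in the ipsilateral vessels differed between 24 h and 7 days for 7 of the 39 genes, in a limma test of the difference over all genes. The difference of the log2 fold changes, 7 days minus 24 h, was 1.05 for Bmf (± 0.21, adjusted p = 0.00382) and 0.68 for Bcl2l11 (± 0.19, adjusted p = 0.0261), the genes with the higher effect at 7 days. It was -0.66 for Bax (± 0.17, adjusted p = 0.0195), -1.01 for Trp53 (± 0.15, adjusted p = 2.61e-04), -1.10 for Ripk3 (± 0.33, adjusted p = 0.0404), -1.23 for Mlkl (± 0.23, adjusted p = 0.00216) and -1.94 for Hrk (± 0.52, adjusted p = 0.0228).

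The calls of Trp53, Mlkl and Bmf were lost in 0 of 12 fits that left out a library. That of Bax was lost in 2, without the sham library 1 (-0.58, adjusted p = 0.0639) and the stroke library 1 of 24 h (-0.58, adjusted p = 0.0627). Bcl2l11 was lost in 6 (sham 1 and 3 and stroke 3 of 24 h, sham 1 and 2 and stroke 1 of 7 days), with differences of 0.55 to 0.77 over the 12 fits and adjusted p-values up to 0.0633. Hrk was lost in 5 (sham 2 and stroke 1 and 2 of 24 h, sham 3 and stroke 1 of 7 days), with -2.24 to -1.58 and adjusted p-values up to 0.0664. Ripk3 was lost in 7 (sham 1 and 2 and stroke 1 and 2 of 24 h, sham 1 and 3 and stroke 3 of 7 days), with -1.25 to -0.88 and adjusted p-values up to 0.110. Bax and Ripk3 were also lost with median centring (-0.56, adjusted p = 0.0536, and -0.997, adjusted p = 0.0531) and after the correction for length and GC content (-0.42, adjusted p = 0.0803, and -0.90, adjusted p = 0.0902). With only the compared groups in the fit, Bcl2l11 (adjusted p = 0.060) and Ripk3 (adjusted p = 0.0503) did not pass.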

How the results depend on the processing

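No regulated gene changed its direction, against sham or in the interaction, under the alternatives run. Of the 39 genes, 10 were regulated against sham at 24 h, and 8 to 10 when a library was left out. At 7 days the count of 5 became 2 with only the compared groups in the fit (Hrk and Gsdmd), 9 without the fold limit, 3 without the sham libraries 3 and the stroke libraries 1 of 7 days on both sides (chosen after seeing the data), and 2 to 6 when 1 library was left out. Ipsilateral against contralateral, the count of 8 at 24 h became 14 without the fold limit and 6 to 9 with a library left out. The count of 7 at 7 days became 3 with only the compared groups, 11 without the fold limit, 11 after the correction for length and GC content, 4 without those libraries and 4 to 7 with 1 left out. Between 24 h and 7 days post-stroke the count of 7 became 11 without the fold limit, 12 without those libraries and 5 to 9 with 1 left out. The interaction gave 7, and 4 to 8. Between the sham groups of both times, 1 gene on each side, Fas, was regulated without those libraries, which were the highest of their groups for Fas, against 0. The other control comparisons gave 0 with every library left out in turn. Except by their own construction (fewer samples, no fold limit), the cause was not tested.

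Where the replicate block paired hemispheres, only the compared groups were in the fit, which without the block left 3 genes at 7 days against contralateral. With the block that count was 2 (Hrk and Bmf), with adjusted p-values of 0.0542 for Gsdmd, 0.0598 for Pycard, 0.0716 for Nlrp3, 0.0851 for Mlkl and 0.0920 for Ripk3. The other counts with the block were 10 and 6 against sham, 11 against contralateral at 24 h, 8 between times, 9 in the interaction and 0 in the control comparisons. Same-numbered stroke hemispheres had correlations down to 0.066 and 0.059 and did not pass the limit of 0.1 for pairing, although each of the 3 libraries correlated best with its own number. The correction for length and GC content moved the median of all genes at 7 days from 0.02 to 0.14, and the shares between times from 3.72% higher and 8.44% lower to 6.60% and 6.62%. Depth per library is not known from rounded normalized counts.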
